A study of Mus musculus with 6 samples.

Results

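The genes described here encode the enzymes that make superoxide, hydrogen peroxide and nitric oxide, measured in mouse endothelial cells with and without overexpression of SOD3, the extracellular superoxide dismutase. They are 10 genes: Nox1, Nox4, Cyba, Cybb, Noxo1, Duox1 and Duox2 of the NADPH oxidase family, Xdh (xanthine dehydrogenase), and the nitric oxide synthases Nos2 and Nos3. The members were found as the non-control spots whose annotation names one of these genes. That gave 17 probes printed at 36 spots, of 55681 probes at 59305 spots that carry 36885 gene or transcript names in all.

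RNA of 6 cultures was hybridized to single-color Agilent mouse arrays, with 3 cultures of the 1G11-mock line and 3 of the 1G11-SOD3 line as biological replicates. 1G11 is a mouse microvascular endothelial cell line (strain C57BL/6NCrLBR), 1G11-mock is its control line and 1G11-SOD3 its derivative that overexpresses SOD3. Before RNA was taken, all 6 cultures had spent 6 h in conditioned medium from a mouse mammary cancer line, N202.1A, so the comparison is between lines that shared this exposure, and cells without it are not analysed here. Each line is a single modified line, so that SOD3 overexpression and any other difference between the lines cannot be told apart. Values are normalized intensities on the log2 scale, and a difference is 1G11-SOD3 minus 1G11-mock.

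NADPH oxidases carry electrons from NADPH across a membrane to oxygen. Nox1, Cybb (the phagocyte oxidase, also called Nox2) and Nox4 are catalytic subunits that need the small membrane subunit Cyba, Noxo1 organizes the Nox1 complex, and Duox1 and Duox2 release hydrogen peroxide in epithelia. Xdh oxidizes hypoxanthine and xanthine to urate and gives off superoxide and hydrogen peroxide in its oxidase form. Nos3 is the endothelial and Nos2 the inflammation-induced nitric oxide synthase; both use arginine and tetrahydrobiopterin, and nitric oxide reacts with superoxide to give peroxynitrite. In blood vessel endothelium Nox4 and Nos3 are usually described as main sources of these molecules.

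Each probe is a strand of 60 bases. The probes below were chosen because they lie in protein-coding sequence and because the results on detection turn on them: the Cyba probe that was measured in both lines, the Nos3 probe printed 10 times, and probes of Nox1, Nox4 and Duox2 that stayed at background. Sequences are in lower case and the capitals at the end of the Duox2 probe mark its stop codon.
Cyba, A_51_P131800: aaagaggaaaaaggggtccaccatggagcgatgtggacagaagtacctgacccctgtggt
Nos3, A_51_P139651: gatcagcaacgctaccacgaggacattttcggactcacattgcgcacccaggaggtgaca
Nox1, A_51_P364714: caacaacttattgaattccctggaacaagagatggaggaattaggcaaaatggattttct
Nox1, A_55_P1997906: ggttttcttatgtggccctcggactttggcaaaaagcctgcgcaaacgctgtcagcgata
Nox4, A_51_P369311: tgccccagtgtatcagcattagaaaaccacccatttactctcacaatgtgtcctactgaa
Duox2, A_55_P1974760: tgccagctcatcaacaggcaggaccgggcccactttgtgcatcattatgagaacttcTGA
The array annotation, which names no genome build, places the Cyba probe on the minus strand of chr8:124950893-124951161, a stretch of 269 bases, and the Nox4 probe on the plus strand of chr7:94472458-94487478, a stretch of 15021 bases. Both stretches are longer than the probe, so each probe spans an exon junction. The Nos3 probe lies on the plus strand at chr5:23889636-23889695, the Nox1 probes on the minus strand at chrX:130627582-130627641 and chrX:130621740-130621799, and the Duox2 probe on the minus strand at chr2:122106173-122106232.

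The first question was which of the enzymes were measurable at all. A spot was taken as measured where the scanner software marked it as well above background. 5 of the 17 probes (29.4%) were above background on all 6 arrays, against 29.3% of all 55681 probes. They belong to 4 genes, namely Cyba with both of its probes, Noxo1, Nos2 and Nos3. 9 probes were above background on no array and 3 on some arrays. Nox1 (2 probes), Nox4 (3 probes), Duox1 (1 probe) and Duox2 (2 probes) were at background with all of their probes on all 6 arrays. Cybb was above background on 1 array, a 1G11-SOD3 array. Thus, of the catalytic NADPH oxidase subunits on the list none was measured in both lines, while the shared subunit Cyba was. A probe at background gives only an upper limit for its transcript and does not show that the transcript was absent.

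**Figure D1:**
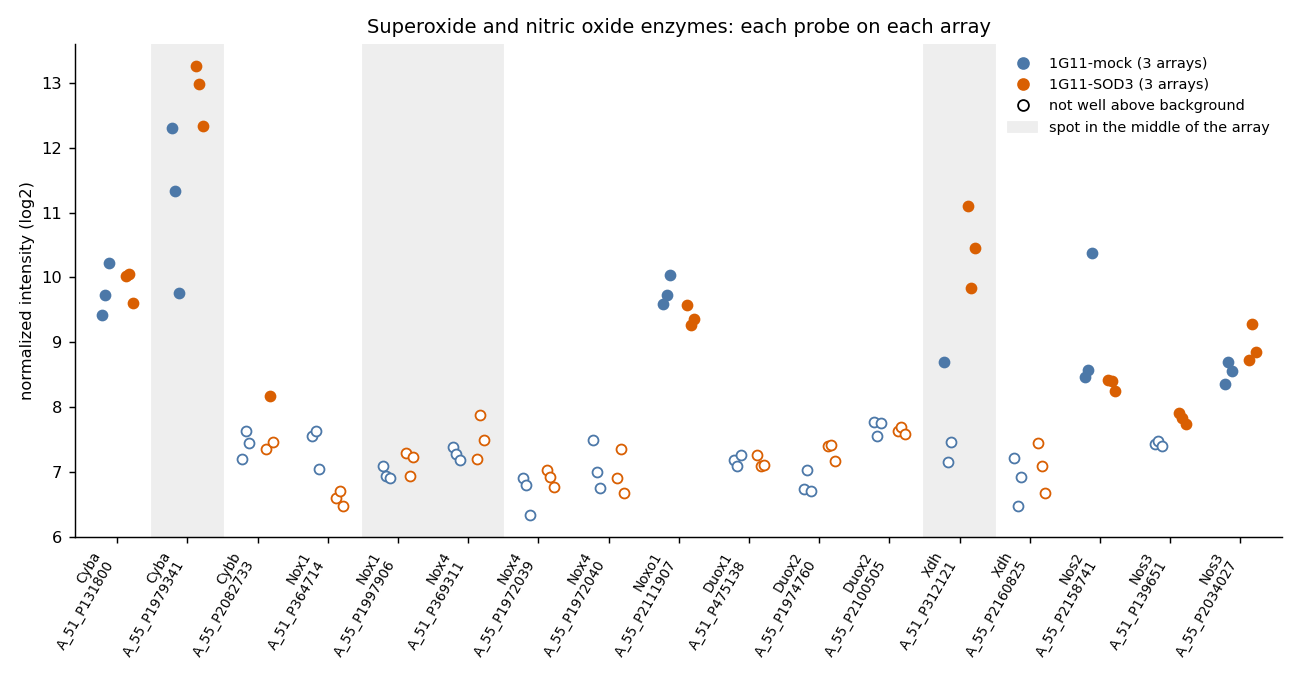
Normalized intensity (log2, vertical axis) of each of the 17 probes on each of the 6 arrays, with 1G11-mock arrays in blue and 1G11-SOD3 arrays in orange; open circles were not well above background (for probes printed several times, on no copy) and gray bands mark probes printed only in the middle of the array. Filled circles in both lines are seen for both Cyba probes, Noxo1, Nos2 and the Nos3 probe A_55_P2034027, and the Xdh probe A_51_P312121 is filled on 1 of the 3 1G11-mock arrays.

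Position on the array moved with these values. Spots in a rectangle at the middle of the array, outlined in the map of the array, read higher on the 1G11-SOD3 than on the 1G11-mock arrays, with a median difference of 1.10 over measured probes, against -0.14 over those outside. Of 6155 probes printed only there, 716 (11.6%) passed the calling rule as higher in 1G11-SOD3, compared with 317 of 49236 probes printed only outside (0.644%). 6 of the 36 member spots lie in the middle. They are the sole spots of 4 probes (Cyba A_55_P1979341, Nox1 A_55_P1997906, Nox4 A_51_P369311 and Xdh A_51_P312121) and 1 of the 10 copies of the Nos3 probe A_51_P139651 and of the Duox1 probe. The 3 arrays of each line were also in a row of their own on 1 slide, so that the row of the slide and the line cannot be told apart. Results in the middle are therefore given apart, next to the values after a position adjustment, in which a smooth surface over the rows and columns of each array was subtracted.

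**Figure D2:**
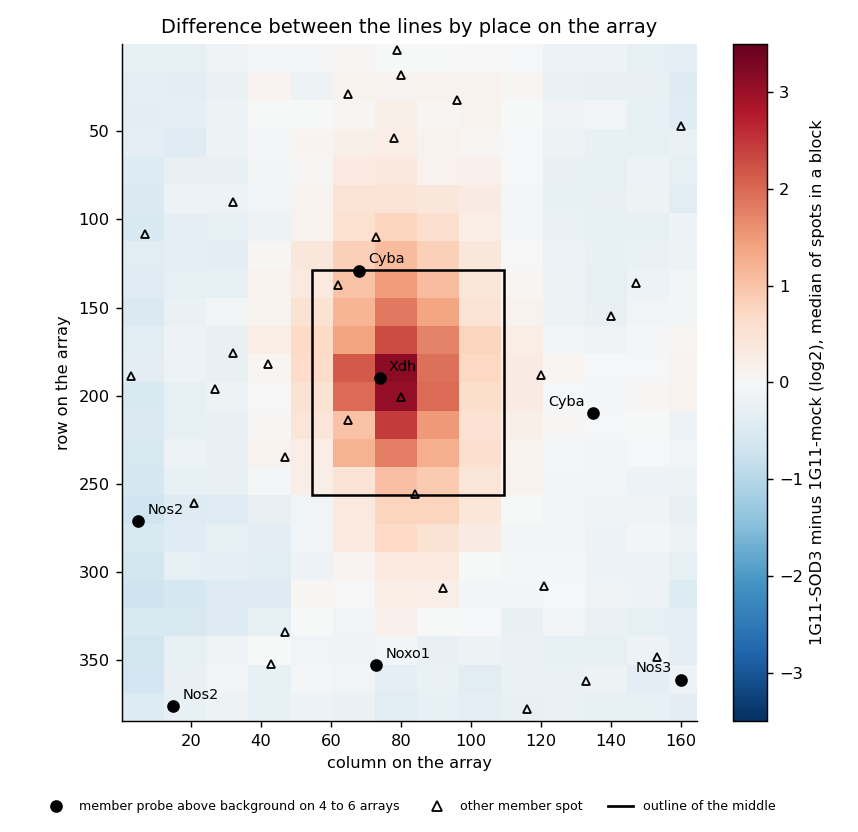
Median difference between 1G11-SOD3 and 1G11-mock (log2, color) of measured spots in blocks of the array, by column (horizontal axis) and row (vertical axis), with the outline of the middle and the member spots on top; filled circles are member probes above background on 4 to 6 arrays. The Xdh spot lies in the block with the largest differences and one Cyba spot lies at the upper edge of the outline, whereas the other Cyba spot and those of Noxo1, Nos2 and Nos3 lie outside it.

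Of the 17 member probes 1 was called higher in 1G11-SOD3 and 0 lower (limma, over 2-fold and a Benjamini-Hochberg adjusted p under 0.05). Over all probes the same rule called 1.87% higher and 1.06% lower. At an unadjusted p under 0.05, 3 member probes were higher and 1 was lower, where 7.17% of all probes were higher and 7.2% lower. The median difference of the 17 probes was 0.20, against -0.03 over all probes. The called probe was that of Xdh in the middle of the array, and it was no longer called after the position adjustment. Then 0 member probes were called higher and 1 lower, where the rule called 1.11% and 2.68% of all probes. The 1 called lower was the Nox1 probe A_55_P1997906, which was above background on no array, so its adjusted value is not read as a level. For 8 member probes the 3 arrays of each line did not overlap; 1G11-SOD3 was the higher line for 5 and the lower line for 3, and 10.3% of all probes were separated in each direction.

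Cyba, the membrane subunit on which Nox1, Cybb and Nox4 depend, was measured by a probe outside and a probe inside the middle. The outside probe A_51_P131800 read 9.41, 9.72 and 10.23 on the 1G11-mock arrays and 10.02, 10.05 and 9.60 on the 1G11-SOD3 arrays. The lines overlapped, with the lowest and the highest value both in 1G11-mock. The difference was 0.10 (SE 0.26, 95% interval -0.48 to 0.68, limma adjusted p = 0.907), so a change of 2-fold in either direction lies outside the interval. The sign turned to -0.087 without 1G11-mock replicate 1.

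The middle probe of Cyba, A_55_P1979341, read 12.31, 11.34 and 9.76 in 1G11-mock and 13.26, 12.98 and 12.33 in 1G11-SOD3. All 1G11-SOD3 arrays were above all 1G11-mock arrays, and 1G11-mock replicate 3 was lowest. The difference was 1.72 (SE 0.51, limma adjusted p = 0.118) and was not called. With the replicate number as a block it passed (adjusted p = 0.00826), and so it did without 1G11-mock replicate 1 (difference 2.30, adjusted p = 0.0219). The 81 measured spots around this probe (within 10 rows and 5 columns) had a median difference of 1.02. After the position adjustment the difference of the probe was 0.78 (SE 0.35, adjusted p = 0.234) and the lines overlapped. The Cyba probes thus gave differences of unlike size, and neither was called in the main fit or after the position adjustment.

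Noxo1, which organizes the Nox1 complex, was measured by 1 probe outside the middle. Its values were 9.60, 9.73 and 10.03 in 1G11-mock and 9.58, 9.27 and 9.37 in 1G11-SOD3. The lines were separated by a narrow gap, with 1G11-SOD3 below. The difference of -0.38 (SE 0.23, 95% interval -0.88 to 0.12) was not called (limma adjusted p = 0.496), and it was -0.11 after the position adjustment, when the lines overlapped. Nox1, the subunit that Noxo1 serves, was at background in both lines.

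Of the catalytic NADPH oxidase subunits, Cybb was above background on 1G11-SOD3 replicate 2 alone. Its probe read 7.20, 7.63 and 7.45 in 1G11-mock and 7.35, 8.17 and 7.46 in 1G11-SOD3. Apart from that array the lines lay within the same range (limma adjusted p = 0.754). The Nox1 probe outside the middle, A_51_P364714, read 7.55, 7.64 and 7.04 in 1G11-mock and 6.59, 6.70 and 6.47 in 1G11-SOD3. Its lines did not overlap, 1G11-SOD3 being lower, and the test was not passed (limma adjusted p = 0.106). As none of the 6 spots was above background, no fold is given. The Nox1 probe inside the middle read between 6.91 and 7.29 on all arrays.

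The 3 probes of Nox4 were also at background. The junction-spanning probe A_51_P369311, in the middle of the array, read 7.39, 7.27 and 7.18 in 1G11-mock and 7.21, 7.87 and 7.49 in 1G11-SOD3. The lines overlapped (limma adjusted p = 0.707). The probes A_55_P1972039 and A_55_P1972040, outside the middle, ranged from 6.34 to 7.02 and from 6.68 to 7.49. Their lines overlapped too (adjusted p = 0.724 and 0.910). Nox4, a catalytic subunit commonly associated with endothelium, was thus not detected in either line with these 3 probes. The 2 outside probes lie close together, at chr7:94547113-94547172 and chr7:94547025-94547084. The measured spots around the middle probe stood at 0.14, -0.57 and -1.59 on the 1G11-mock arrays, relative to their mean over the 6 arrays. On the 1G11-SOD3 arrays they stood at 1.07, 0.30 and 0.70.

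The dual oxidases, enzymes best known from thyroid and airway epithelium, were at background as well. The Duox1 probe is printed 10 times, and its 60 spots ranged from 6.46 to 7.88. The difference between the lines was above 0 at 4 of the 10 copies, with copies from -0.27 to 0.32, and the mean over copies differed by -0.03 (limma adjusted p = 0.972). The Duox2 probe that ends at the stop codon read 6.73, 7.02 and 6.71 in 1G11-mock and 7.40, 7.41 and 7.17 in 1G11-SOD3. The lines did not overlap, 1G11-SOD3 being higher, with an adjusted p of 0.323 by limma. The second Duox2 probe ranged from 7.55 to 7.77 and its lines overlapped.

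Xdh was the one member with a called probe. The probe A_51_P312121 read 8.69, 7.16 and 7.46 in 1G11-mock and 11.10, 9.83 and 10.46 in 1G11-SOD3. Among the mock arrays it was above background on replicate 1 alone. Each 1G11-SOD3 array was above background and lay above every 1G11-mock array. The difference between the measured means was 2.69 (SE 0.41, 95% interval 1.79 to 3.59, limma adjusted p = 0.00518). The 1G11-mock arrays at background were also set to the lowest signal that counts as measured on them. The signal at this spot was then at least 4.43-fold higher in 1G11-SOD3. That bound takes no account of the place of the spot, so it is not a bound on the Xdh level. The spot lies at row 190 and column 74. The 72 measured spots of other probes around it had a median difference of 3.03. Relative to their own mean over the 6 arrays these neighbors stood at -0.28, -2.41 and -1.94 on the 1G11-mock arrays and at 1.77, 0.83 and 1.85 on the 1G11-SOD3 arrays. The Xdh probe thus followed its neighbors in that 1G11-mock replicate 1 was the highest mock array and 1G11-SOD3 replicate 2 the lowest SOD3 array.

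After the position adjustment the same probe read 9.14, 9.26 and 9.18 in 1G11-mock and 9.63, 9.18 and 9.07 in 1G11-SOD3. The lines overlapped, and the difference was 0.10 (SE 0.22, limma adjusted p = 0.840). The adjustment over-corrects spots at background, and 2 of the 3 1G11-mock spots were at background and were raised from 7.16 and 7.46, so that 0.10 carries this over-correction to an unknown extent. With the adjustment made on the signal scale, an alternative chosen after seeing the data, it was 0.40 (adjusted p = 0.348). The second Xdh probe, A_55_P2160825, designed on another transcript and printed outside the middle, was above background on no array. It read 7.22, 6.47 and 6.92 in 1G11-mock and 7.44, 7.09 and 6.68 in 1G11-SOD3, and its lines overlapped (adjusted p = 0.801). The Sod3 probe itself, at row 168 and column 91, also lies in the middle. It read 13.61, 12.66 and 9.86 in 1G11-mock and 16.37, 16.30 and 16.26 in 1G11-SOD3. Its difference of 4.27 (limma adjusted p = 0.00786) was 2.69 after the position adjustment (adjusted p = 0.0136) and remained called, so the labels of the lines matched the overexpressed gene. Without 1G11-SOD3 replicate 3 the unadjusted call of Sod3 was lost (adjusted p = 0.0518).

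**Figure D3:**
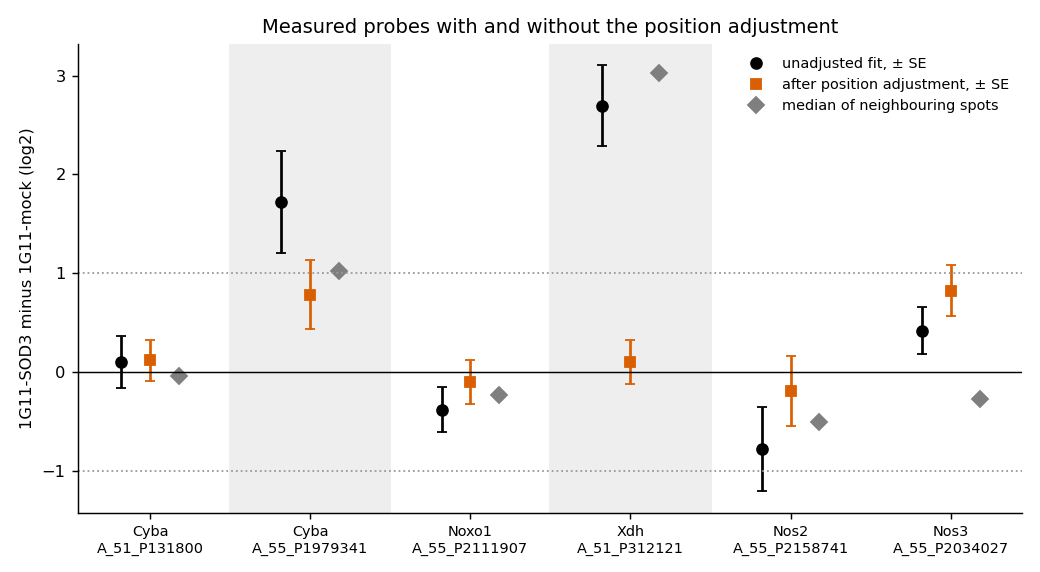
Difference between 1G11-SOD3 and 1G11-mock (log2, vertical axis) of the 6 member probes above background on 4 to 6 arrays, in the unadjusted fit (black circles, ± SE), after the position adjustment (orange squares, ± SE) and, for comparison, the median difference of the measured spots around each probe (gray diamonds); gray bands mark the middle of the array and dotted lines a 2-fold difference. The Xdh probe moved from 2.69 to 0.10, whereas the Cyba probe outside the middle stayed at 0.10 and 0.12.

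Nos2, the nitric oxide synthase that inflammatory signals induce, was measured on all 6 arrays by a probe printed at 2 spots near the left edge. Its values, averaged over both copies, were 8.47, 8.58 and 10.38 in 1G11-mock and 8.42, 8.40 and 8.25 in 1G11-SOD3. All 1G11-SOD3 arrays lay just below the mock arrays, and 1G11-mock replicate 3 stood far above the other 5. That array was high at both copies, with 10.50 and 10.26, while the other spots ranged from 8.20 to 8.60. The difference was -0.78 (SE 0.42, 95% interval -1.72 to 0.15, limma adjusted p = 0.444), and it was -0.17 without 1G11-mock replicate 3. The spots around the copies were also higher on 1G11-mock replicate 3 than on the other arrays, by 0.69 and 0.35 relative to their mean over the 6 arrays. After the position adjustment this array still read 9.77, the other 5 read 8.28 to 8.75, and the difference between the lines was -0.19 (adjusted p = 0.797).

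Nos3, the endothelial nitric oxide synthase, was measured by 2 probes outside the middle apart from 1 copy. The probe A_55_P2034027 was above background on all 6 arrays and read 8.35, 8.69 and 8.56 in 1G11-mock and 8.73, 9.28 and 8.85 in 1G11-SOD3. Every 1G11-SOD3 array was above every 1G11-mock array, by a gap that is small next to the spread within each line. The difference was 0.42 (SE 0.24, 95% interval -0.10 to 0.94) and was not called (limma adjusted p = 0.471). It was 0.82 after the position adjustment (SE 0.26, adjusted p = 0.104), again without overlap and again not called, while the measured spots around it had a median difference of -0.27.

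The probe of Nos3 that is printed 10 times, A_51_P139651, was nearer to background. None of its 1G11-mock spots was above background, and 12 of its 1G11-SOD3 spots were, spread over all 3 arrays. 3 of its 60 spots were marked as outliers by the scanner software and left out. The means over copies were 7.43, 7.47 and 7.40 in 1G11-mock and 7.91, 7.83 and 7.74 in 1G11-SOD3, and the lines did not overlap. The difference was above 0 at all 10 copies, from 0.26 to 0.76, with 9 of these copies outside the middle. For the mean over copies it was 0.40 (SE 0.21, limma adjusted p = 0.434). No fold is given, because no 1G11-mock spot was measured. The 1G11-SOD3 mean, 7.83, also lay below 8.09, the mean over the 1G11-mock arrays of the lowest signal that counts as measured. After the position adjustment, which over-corrects spots at background, 8 of the 10 copies were above 0, from -0.41 to 0.79 over all copies. The mean over copies then differed by 0.44 (adjusted p = 0.232), without overlap. The copy at row 110 and column 73, outside the middle, lay among spots with a median difference of 0.77. It was at -0.36 after the adjustment. Both probes of Nos3 thus read higher on every 1G11-SOD3 array, without passing the test over all probes.

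**Figure D4:**
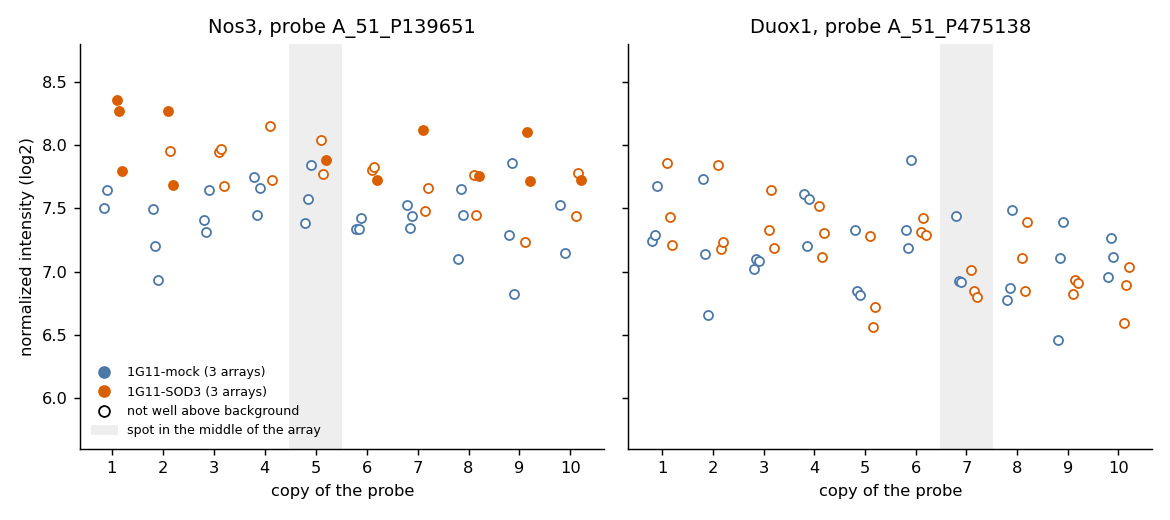
Normalized intensity (log2, vertical axis) of each of the 10 copies (horizontal axis) of the Nos3 probe A_51_P139651 (left) and of the Duox1 probe (right) on the 6 arrays, 1G11-mock in blue and 1G11-SOD3 in orange; filled circles were well above background and gray bands mark the copy in the middle of the array. The 1G11-SOD3 mean is higher at all 10 Nos3 copies and at 4 of the 10 Duox1 copies.

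For the Cyba probe A_51_P131800, likeness to other genes was examined. The named genes whose values over the 6 arrays were most like it, out of 11251 probes measured on all arrays and printed outside the middle, were Smyd5 (Pearson r = 0.994), Ddx20 (r = 0.992) and Septin11 (r = 0.989). These r are the highest of many over 6 points from shared arrays, and they are given as a description only.

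The genes around the enzymes were taken as 5 lists with 64 genes, each represented by its probe of highest mean over the 6 arrays. That choice can favor a probe that is high in a single line, as it did for Odc1, described below. 40 of them were above background on all 6 arrays and 15 on none. 4 were called higher and 2 lower in 1G11-SOD3, where the same rule called 2.13% of all gene names higher and 1.27% lower. The median difference over the 64 genes was 0.05, against -0.04 over all gene names. All 4 probes called higher lie in the middle of the array, in which 5 of the 64 genes have their probe, and both probes called lower lie outside it. After the position adjustment the counts were again 4 higher and 2 lower (1.33% and 2.69% of all gene names), of which 2 higher and 2 lower were called in both fits. The adjusted calls include Prkg2, whose 1G11-mock spots were all at background. At an unadjusted p under 0.05, 7.8% of all gene names were higher and 7.97% lower.

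Of 13 partners of the NADPH oxidases, 4 were above background on all 6 arrays and 6 on none. Among the latter were the phagocyte GTPase Rac2, the inner-ear oxidase Nox3 and the Duox2 maturation factor Duoxa2. None of the 13 was called (limma), and at an unadjusted p under 0.05, 3 were higher and 1 was lower. The lower one, named here after its values were seen, was Noxa1, the activator of Nox1, which read 8.89, 8.75 and 9.14 in 1G11-mock and 7.17, 8.25 and 8.02 in 1G11-SOD3. It was above background on 5 arrays, and its lines did not overlap, with a difference of -1.11 (SE 0.29, limma adjusted p = 0.0719) and of -0.60 after the position adjustment (adjusted p = 0.145). Sh3pxd2b, an adaptor related to Noxo1, read 9.63, 10.31 and 10.05 in 1G11-mock and 11.11, 10.83 and 10.46 in 1G11-SOD3. Its lines did not overlap, with a difference of 0.80 (limma adjusted p = 0.163). Cybc1, which is needed for the phagocyte oxidase to assemble, had a difference of 0.65 (adjusted p = 0.232), also without overlap, and of 0.34 after the position adjustment.

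The arginine supply of the nitric oxide synthases held a called decrease. Ass1, which makes argininosuccinate in the recycling of citrulline to arginine, read 14.25, 14.01 and 14.08 in 1G11-mock and 12.98, 13.07 and 11.83 in 1G11-SOD3. The lines did not overlap, and 1G11-SOD3 replicate 3 was lowest. Ass1 fell by 1.49 on the log2 scale (SE 0.32, limma adjusted p = 0.0294). A second Ass1 probe fell by 1.81 (SE 0.32, adjusted p = 0.0123), and both probes, printed outside the middle, kept the call after the position adjustment. The call of the first probe was lost on leaving out any of the 3 1G11-mock arrays or 1G11-SOD3 replicate 3 (difference -1.09 to -1.54, adjusted p = 0.0688 to 0.0963), and in 3 of 9 other processings of the signal (adjusted p up to 0.0686). Arg1 and Arg2, the arginases, were at background, and the transporter Slc7a2 differed by -0.81 without overlap (adjusted p = 0.159).

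Odc1, the ornithine decarboxylase downstream of arginase, was called higher by the probe A_55_P1995173, in the middle of the array. That probe was above background on a single 1G11-mock array and its measured means differed by 3.33 (SE 0.58, limma adjusted p = 0.0106). By the bound used for Xdh, which takes no account of place, its signal was at least 9.24-fold higher. The call was lost without 1G11-mock replicate 2 (adjusted p = 0.0693). The difference was 1.57 after the position adjustment (adjusted p = 0.0524), a call that passed with dim probes left out (adjusted p = 0.0357) or with the replicate block (adjusted p = 0.0259). Another Odc1 probe in the middle, A_55_P1982818, was at background on all 1G11-mock arrays. It was higher without overlap but was not called, with a difference of 0.70 (adjusted p = 0.213) and of 0.35 after the position adjustment. The Odc1 probe outside the middle, above background on all 6 arrays, differed by 0.44 (adjusted p = 0.666), and its lines overlapped. Ddah1, which degrades an endogenous inhibitor of the synthases, has a probe printed 10 times that read 8.83, 9.72 and 10.09 in 1G11-mock and 10.61, 10.86 and 10.36 in 1G11-SOD3. It was higher without overlap but was not called, with a difference of 1.07 (adjusted p = 0.113) and of 1.15 after the position adjustment (adjusted p = 0.0507). A second Ddah1 probe, outside the middle and above background on all arrays, differed by 0.78 (adjusted p = 0.286), and its lines overlapped. After the position adjustment that probe differed by 1.04 (adjusted p = 0.108). Of the 11 genes on this list, 8 were above background on all arrays.

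Of 18 partners and cofactor enzymes of the nitric oxide synthases, 14 were above background on all 6 arrays and Nos1, the neuronal synthase, on none. 1 was called higher and none lower (limma), and at an unadjusted p under 0.05, 3 were higher and 2 lower. The called gene was Spr, which completes the synthesis of tetrahydrobiopterin, with a difference of 1.26 (SE 0.26, adjusted p = 0.0271). Its spot is in the middle, its difference after the position adjustment was 0.37 (adjusted p = 0.380), and the call was lost on leaving out any 1 of the 6 arrays (adjusted p = 0.0509 to 0.120). Gch1, the first enzyme of tetrahydrobiopterin synthesis, read 13.16, 12.72 and 13.67 in 1G11-mock and 12.48, 12.51 and 11.80 in 1G11-SOD3. Its lines did not overlap, with a difference of -0.92 (adjusted p = 0.153). A second Gch1 probe, in the middle of the array and at background on all 1G11-mock arrays, went the other way by 0.76 without overlap (adjusted p = 0.176). After the position adjustment the first probe differed by -0.65 and the second by -0.77. The second of these values is limited, because the adjustment over-corrects spots at background. Cav1, which holds Nos3 inactive in caveolae, read 10.51, 10.51 and 10.76 in 1G11-mock and 11.65, 11.46 and 11.34 in 1G11-SOD3. It was higher on every 1G11-SOD3 array by 0.89 (SE 0.22, adjusted p = 0.0556), and it was called after the position adjustment with a difference of 1.07 (adjusted p = 0.0161). Nos1ap, an adaptor of Nos1, differed by -0.64 without overlap (adjusted p = 0.207) and by 0.28 after the position adjustment.

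The targets of nitric oxide were 8 genes, with 2 above background on all arrays and 4 on none. Both chains of soluble guanylate cyclase in general use (Gucy1a1 and Gucy1b1), the third chain Gucy1a2 and the kinase Prkg1 were at background. None of the 8 was called by limma, and 1 had an unadjusted p under 0.05 and was higher. This was Prkg2, the membrane-bound cGMP-dependent kinase, which read 6.97, 7.45 and 8.14 in 1G11-mock, on no array above background, and 8.39, 8.47 and 7.96 in 1G11-SOD3, on all arrays above background. The lines overlapped, with 1G11-mock replicate 3 above 1G11-SOD3 replicate 3 (limma adjusted p = 0.279), so no fold is given. The lowest signal that counts as measured was 8.17 on that 1G11-mock array and 7.56 on that 1G11-SOD3 array. After the position adjustment the probe was called (adjusted p = 0.0247), but with all 1G11-mock spots at background, where the adjustment over-corrects, that call is not read as a change.

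Among the 14 genes around Xdh, which share its molybdenum cofactor or feed purines to it, 12 were above background on all 6 arrays. 2 were called higher and 1 lower. Ada, which deaminates adenosine to inosine, read 9.03, 8.15 and 8.65 in 1G11-mock and 11.16, 11.42 and 10.58 in 1G11-SOD3. All 1G11-SOD3 arrays were higher, with a difference of 2.44 (SE 0.30, limma adjusted p = 0.00149) and of 1.62 after the position adjustment (adjusted p = 0.0299). Pnp, which releases hypoxanthine from inosine, read 12.81, 12.43 and 10.47 in 1G11-mock and 15.23, 14.18 and 15.25 in 1G11-SOD3. Its difference was 2.98 (SE 0.52, adjusted p = 0.0110), and 1.30 after the position adjustment (adjusted p = 0.0167). Both spots lie in the middle of the array. The second Pnp probe, outside it, was at background on all arrays, and the Pnp call was lost without 1G11-SOD3 replicate 3 (adjusted p = 0.0742).

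The gene of this list that was called lower was Suox, sulfite oxidase, another molybdenum enzyme. It read 14.92, 14.86 and 14.62 in 1G11-mock and 14.03, 13.43 and 13.66 in 1G11-SOD3. Suox fell by 1.09 on the log2 scale (SE 0.24, limma adjusted p = 0.0321), without overlap, and its difference was -1.15 after the position adjustment (adjusted p = 0.0165). The call was lost on leaving out 1G11-mock replicate 1 or 2 or 1G11-SOD3 replicate 2 or 3 (difference -0.95 to -1.07, adjusted p = 0.0785 to 0.145), and in 4 of 9 other processings of the signal (adjusted p up to 0.0911). Mocs1, which starts the synthesis of the cofactor, had a difference of -0.67 without overlap and was not called (adjusted p = 0.165). The median difference of the list was -0.37, and -0.14 after the position adjustment.

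**Figure D5:**
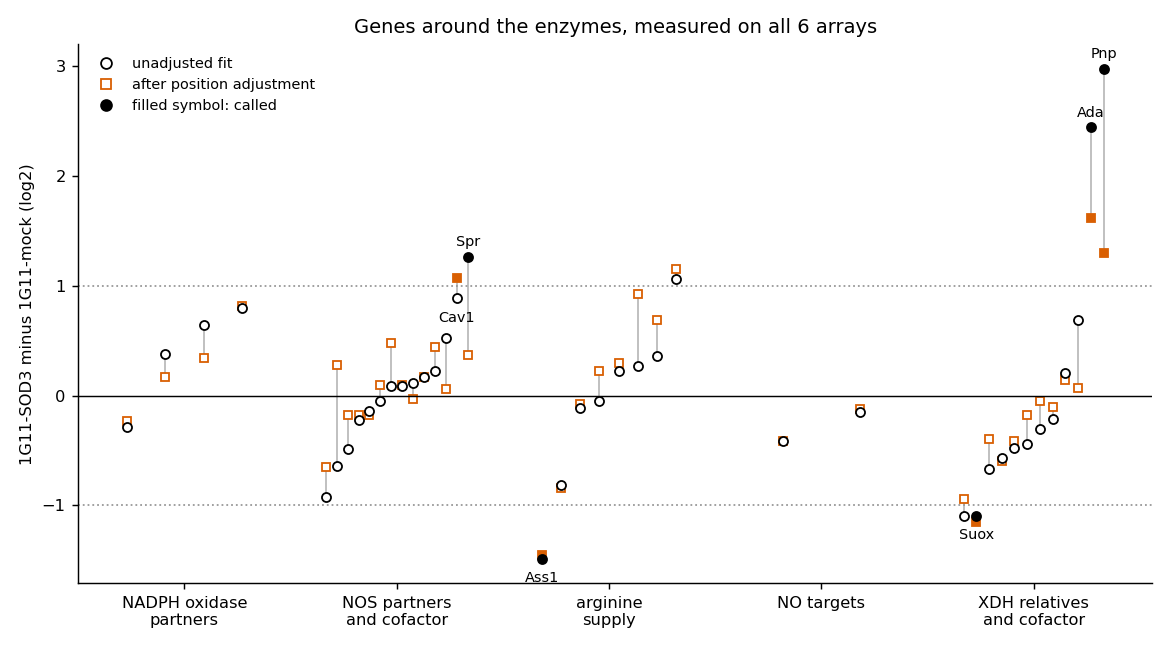
Difference between 1G11-SOD3 and 1G11-mock (log2, vertical axis) of the 40 genes above background on all 6 arrays, by list (horizontal axis), in the unadjusted fit (circles) and after the position adjustment (squares joined to them); filled symbols passed the calling rule, named genes did so in at least 1 fit, and dotted lines mark a 2-fold difference. Ass1 and Suox hold their place in both fits, whereas Ada, Pnp and Spr come down; Odc1, measured on 1 of 3 1G11-mock arrays, is not drawn.

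Over all spots, 34.2% to 35.97% were above background on the 1G11-mock arrays and 38.4% to 43.8% on the 1G11-SOD3 arrays, and no spot was saturated. Of 12 endothelial markers, 4 (Eng, Esam, Kdr and Vwf) were above background on all 6 arrays and 5 (Cdh5, Emcn, Erg, Tek and Tie1) on none. The summed intensity of the list was 22347 to 30157 on the 1G11-mock and 15350 to 18928 on the 1G11-SOD3 arrays. It rests mainly on Eng (means 13.81 and 12.76) and Kdr (12.89 and 12.39). Vwf was called lower, as were 1.27% of all gene names. At an unadjusted p under 0.05 (limma), 3 markers were lower (Eng, Kdr and Vwf) and 2 higher (Esam and Flt1). The 2 higher ones lie in the middle and differed by 1.22 and 1.07, and by -0.40 and 0.16 after the position adjustment. The 3 lower ones, outside it, differed by -0.71, -0.41 and -1.40 after the adjustment. Of the 11 macrophage and neutrophil markers on the array, where Cybb and Nos2 are best known, 7 were at background on all arrays, Ptprc, Spi1 and Lyz2 among them, and none was called (limma; none had an unadjusted p under 0.05). Itgam and Csf1r were above background on all arrays, and the summed intensity of the list was 17324 to 23689 on the 1G11-mock and 19427 to 24598 on the 1G11-SOD3 arrays. 6 of 10 fibroblast and smooth muscle markers were called higher in 1G11-SOD3, in both fits. Of all gene names, 2.13% were called higher in the unadjusted fit and 1.33% after the position adjustment. The summed intensity of the list was 21846 to 36839 on the 1G11-mock and 46333 to 176377 on the 1G11-SOD3 arrays. The upper end rests on Dcn, which was not called and read 17.05 on 1G11-SOD3 replicate 3 against 13.51 and 13.59 on the other 1G11-SOD3 arrays; without Dcn the sums were 4987 to 8777 and 34041 to 41418. Des and Myh11 of that list were at background on all arrays. Of 8 epithelial markers none was called and none had an unadjusted p under 0.05 (limma). Only Krt19 was above background on all 6 arrays, and 3 (Cldn4, Epcam and Krt18) on none. The summed intensity of the list was 68014 to 112291 on the 1G11-mock and 44839 to 84936 on the 1G11-SOD3 arrays. This sum rests almost wholly on Krt19, with means of 16.48 in 1G11-mock and 15.96 in 1G11-SOD3. The part of these differences between the lines in the values of the enzymes was not tested.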

How the data were processed

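For each array the authors provided Agilent Feature Extraction output (version 10.7.3.1), whose deposited intensity columns are not normalized between arrays, and in addition deposited normalized log2 values of all arrays. The latter, used as an alternative only, correlated at 0.999 or above with the values computed here, so their direction and scale are known; their column medians are 7.57 to 7.58. Per the labels, limma was used.

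Mean intensities were corrected with normexp (offset 50, local background median), taken to log2, freed of control spots and quantile normalized. Spots marked as outliers were left out and copies averaged. The lines were compared with limma 3.58.1 in R 4.3.3 (lmFit, eBayes), with Benjamini-Hochberg adjustment over 55681 probes; calls needed over 2-fold and an adjusted p under 0.05. Probes were named by RefSeq accession (27650 probes), by the annotation text, or kept as in the files (26547 probes); 2 member probes were found by full gene name. The position adjustment subtracted, from each array, a Gaussian surface (SD 6 rows and 3 columns) of the deviation of measured spots from the 6-array mean. Among 6 widths it gave the smallest spread of the difference among copies of 192 probes printed 10 times (0.223, from 0.701 unadjusted). It over-corrects spots at background, which limits the adjusted values of probes that were not measured on every array. A bound took, per array, the higher of the probe's value and the lowest signal among spots above background.

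Arrays with the same replicate number deviated together (r = 0.20, 0.14 and 0.14 between lines), and they share a column of the slide, so the number may pair them. After the position adjustment these r were 0.10, 0.15 and 0.24, and 1G11-mock replicate 2 with 1G11-SOD3 replicate 1 gave 0.16. The main fit left the number out, and a fit with the number as a block was an alternative. With 3 arrays a line, the number of arrays limits the precision. The p-values rest on the spread between arrays within a line, moderated over all probes. Each culture was on 1 array, so the spread of cultures and that of hybridizations cannot be told apart. The functions were tested on simulated data. The members and gene lists were chosen with earlier results of these data known. The member probes were all described; of the lists, genes called in either fit, or above background on all arrays with no overlap and over 1.5-fold, were named. Of the lists, 1 gene is not reported here by name. Figures were made with Python 3.11.15 and matplotlib 3.10.9.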

Additional observations from a re-analysis of the deposited data

How the results depend on the processing

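Over the member probes above background on 4 to 6 arrays, 116 of the values under other settings kept their direction and their side of the threshold, 4 lost a call, 3 gained one and 1 reversed. The Xdh probe in the middle was called under every other processing of the signal (difference 2.10 to 3.05) and on leaving out any array, and it lost the call with the position adjustment (0.10), with that adjustment on the signal scale (0.40) or with dim probes left out (0.10), and with the adjustment and the replicate block together (0.10). The signal-scale adjustment and the adjustment with dim probes left out were chosen after seeing the data. The middle Cyba probe was called with 75th percentile scaling (1.88) and with the replicate block (1.72), and ranged from 1.03 to 2.30 on leaving out single arrays; the outside Cyba probe ranged from -0.087 to 0.32, reversing without 1G11-mock replicate 1. With the replicate block 2 member probes were called higher (Cyba and Xdh), and the block changed no other call of a member probe.

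Member probes called higher, 1 in the main setting, were 2 with 75th percentile scaling, 0 with each position adjustment, 0 with the middle left out, 0 with the block and position adjustment together, and 1 to 2 on leaving out single arrays. Those called lower, 0 in the main setting, were 3 with the processed signal, 1 with 75th percentile scaling, and 1 with the position adjustment, on the signal scale or with the block; all of these were above background on no array. All probes called higher, 1040 in the main setting, were 655 without background correction and 620 with the position adjustment. They were 468 with that adjustment on the signal scale and 534 with it and dim probes left out. With the middle left out they were 299, and on leaving out single arrays 484 to 1277. The count rose to 1516 with 75th percentile scaling and to 1452 with the replicate block. The processed signal gave 1200, and leaving out dim probes without the adjustment gave 1160. All probes called lower, 589 in the main setting, were 391 with an offset of 16, 9918 with the processed signal, 1082 with 75th percentile scaling, 1492 with the position adjustment, 2069 with the block and position adjustment, and 277 to 517 on leaving out single arrays. Pathway genes called higher, 4 in the main setting, were 7 with the processed signal, 0 with the middle left out and 2 to 3 on leaving out single arrays; those called lower, 2 in the main setting, were 1 without background correction, 0 with an offset of 16, 7 with the processed signal, 1 with cyclic loess and 0 to 2 on leaving out single arrays. The share of calls that were higher was 63.8%, against 10.8% with the processed signal, 29.4% with the position adjustment, 35.9% with it on the signal scale, 54.4% with it and dim probes left out, 26.4% with it and the block, and 35.5% with the middle left out. The processed signal and 75th percentile scaling shifted the median of all probes by -0.49 and -0.30. The cause of these changes was not tested.

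Signal over background limits the account: 9 of 17 member probes were measured on no array, and 3 arrays a line allow no exact permutation p below 0.1.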
